A study of Mus musculus with 6 samples.

Results

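Bone morphogenetic protein (BMP) signalling and its Id target genes are described here through 10 genes, chosen as the rows of the count table whose symbol was Bmp2, Bmp4, Bmp7, Bmpr1a, Bmpr2, Smad6, Id1, Id2, Id3 or Id4. All 10 were found among the 55418 symbols of the table, and all 10 were among the 15199 genes with enough reads to be tested. The libraries came from MOC2, a mouse head and neck squamous carcinoma line negative for papillomavirus, in 2 groups of 3: cells with a control CRISPR edit, and cells labelled EphA4 knockout, which are a single clone named H3. Both groups were untreated, were passaged 2 times after thawing, carry the same batch label and grew in medium with serum, EGF, hydrocortisone and insulin. The knockout was compared with control to learn how the loss of EphA4, an ephrin-binding receptor tyrosine kinase, alters RNA levels. As the labelled-knockout cells are a single clone, traits of that clone cannot be told apart from an effect of the edit. Nothing in the labels states that samples within a group were grown separately, and p-values therefore cover only the scatter among these 6 libraries, which could be technical.

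BMPs are secreted dimers that bind a complex of type I and type II serine/threonine kinase receptors, among them Bmpr1a and Bmpr2. The type I receptor phosphorylates Smad1, Smad5 and Smad9, which join Smad4 and enter the nucleus. The Id genes and Smad6 are among the best known direct targets: Id proteins carry a helix-loop-helix domain with no DNA-binding part and hold E proteins away from DNA, and Smad6 blocks the receptors and Smads in a negative feedback. In stratified epithelia the pathway is known for its part in differentiation.

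The libraries held 35115926 to 41775031 counts, so that 1 count was worth 0.0240 to 0.0283 CPM (reads scaled to library size with TMM factors). Epha4 itself was not lower in the libraries labelled EphA4 knockout, at 55.1 ± 4.26 CPM in control and 99.7 ± 3.27 CPM there (SD, n = 3 each), so directions below are those of the labelled libraries and not of a loss of Epha4 transcript. EphA4 knockout replicate 3 stood apart: processed pseudogenes took 1.41% of its reads and 0.255% to 0.307% of the reads elsewhere. Of 8 squamous or general epithelial markers, Krt5 had 2 counts over the 6 libraries and Trp63 had 2 in each group. Krt8, Krt18, Epcam and Cdh1 were abundant. The 6 markers besides Krt5 and Trp63 were tested: Krt8, Krt18, Cdh1 and Sfn rose, Epcam fell 1.52-fold and Krt14 fell 2.04-fold. The summed level of the list was 3896 to 3945 CPM in control and 4117 to 4163 CPM in the labelled-knockout libraries. Most of this sum came from Krt8, Krt18, Epcam and Cdh1, which are not specific to squamous cells. Krt14 averaged 3.72 CPM in control and 1.83 CPM with the knockout label. Of 10 fibroblast and pericyte markers, 6 were tested and all 6 fell, beside 38.8% of all tested genes called lower. Of these 6, Col1a1, Col3a1, Dcn, Pdgfrb and Rgs5 could be tested only because they were higher in control, so this count is a description. The list summed to 50.2 to 53.2 CPM in control and 1.96 to 2.06 CPM in the labelled-knockout libraries, with Lum at 0 in every library. Col1a2 of the same list was too low to test and lay the other way, with 4, 0 and 1 counts in control, and 8, 11 and 10 counts with the knockout label. Of 7 leukocyte markers Cd3e, Itgam and Adgre1 were at 0 in every library, and the 1 tested, Cd68, fell, the list summing to 17.5 to 19.8 CPM in control and 4.31 to 4.82 CPM in the labelled-knockout libraries. The 5 endothelial markers summed to 1.62 CPM or less.

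Of the 10 genes, 4 fell and 1 rose in the labelled-knockout libraries, and the 5 others did not pass an adjusted p of 0.05 in edgeR's quasi-likelihood test. The ligand gene Bmp2, the inhibitory gene Smad6 and the target genes Id1 and Id3 were the 4 that fell, each by a log2 fold change beyond -1, and Id2 rose. The share of all tested genes that passed was 71.5%, so 5 of 10 was no more than the background. The share that passed with a log2 fold change of -1 or lower was 20.1%, beside 4 of 10 here. Of these 4, Bmp2 had enough reads to be tested only through the control libraries. The 10 genes were also chosen with earlier results of these data known, so 4 of 10 is a description. The median log2 fold change was -0.10 over the 10 genes and -0.04 over all tested genes. Placing the genes with 0 counts at their bound left both medians unchanged, as it must, since such genes stay on the same side of the median. In bulk samples, fewer cells of a type and less RNA per cell cannot be told apart.

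**Figure D1:**
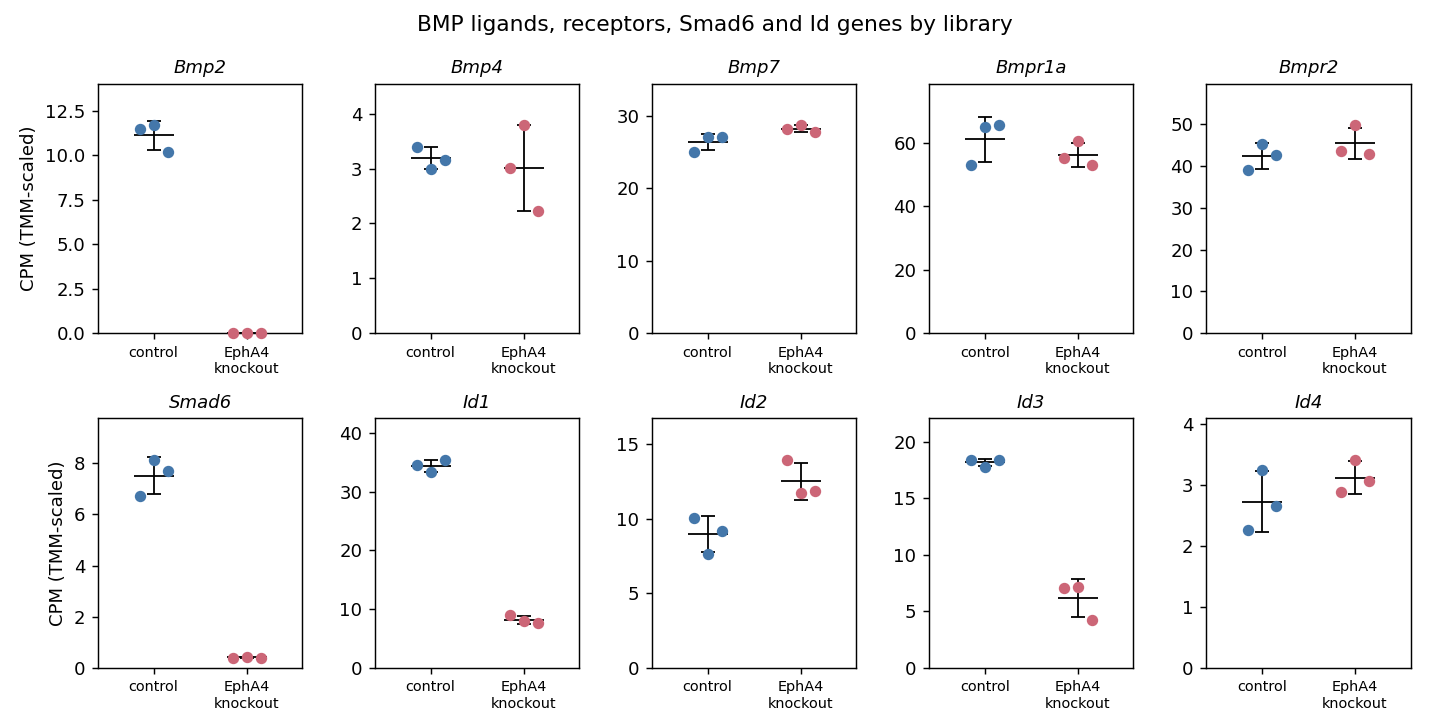
Level of each of the 10 genes in every library, as TMM-scaled CPM on linear axes that start at 0. Points are libraries, horizontal bars are group means and error bars are SDs (n = 3). Bmp2 sits at 0 in all 3 labelled-knockout libraries, Smad6, Id1 and Id3 lie well below control, and the receptors Bmpr1a and Bmpr2 overlap between groups.

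Among the ligands, Bmp2 fell to 0 counts while Bmp4 and Bmp7 were near their control levels. Bmp2, on chromosome 2, encodes a BMP that binds Bmpr1a with high affinity. It had 426, 413 and 425 counts in the control libraries and 0 in each labelled-knockout library. The control level of 11.1 ± 0.812 CPM (SD, n = 3) was thus at least 404-fold above the floor of 3 counts over the labelled-knockout group, with an adjusted p of 3.6e-07 in edgeR's quasi-likelihood test. Of all tested genes, 1.49% were called with 0 counts in the 3 labelled-knockout libraries. Of its tested neighbours along the chromosome, Fermt1 on the lower side rose (log2 fold change 0.56) and Hao1 on the upper side fell by 4.97 on the log2 scale.

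Bmp7, which encodes a BMP of another subgroup, had 928, 955 and 1126 counts in control, and 1006, 1059 and 1022 counts with the knockout label. Its mean levels were 26.4 ± 1.15 and 28.2 ± 0.449 CPM (SD, n = 3 each). The CPM of the groups did not overlap, as for 76.1% of all tested genes, yet the fold of 1.07 had a 95% interval of 0.969 to 1.18 and an adjusted p of 0.19 in edgeR. Bmp4, the close relative of Bmp2, had 126, 106 and 132 counts in control, and 108, 140 and 82 counts with the knockout label. The groups overlapped, with both the lowest and the highest value in the labelled-knockout group. Its fold of 0.946 had a 95% interval of 0.631 to 1.42 and an adjusted p of 0.79 in edgeR. Changes within that interval could not be told apart from no change. Without EphA4 knockout replicate 3, which had the 82 counts, the log2 fold change went from -0.08 to 0.15, again not passing (adjusted p = 0.53).

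Per kilobase of exon, the control order was Bmp7 (6.56 ± 0.287), Bmp2 (3.13 ± 0.229) and Bmp4 (1.42 ± 0.0887 CPM per kb, SD, n = 3), with no overlap between neighbours. Bmp2 made up 26.1% to 29.5% of the summed level of the 3 ligand transcripts in the control libraries and 0% in the labelled-knockout ones. Bmp7 went from 56.8% to 61.1% of that sum in control to 80.9% to 87.5%. The sum itself was 11.1 ± 0.213 and 8.36 ± 0.458 CPM per kb (SD, n = 3 each).

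**Figure D2:**
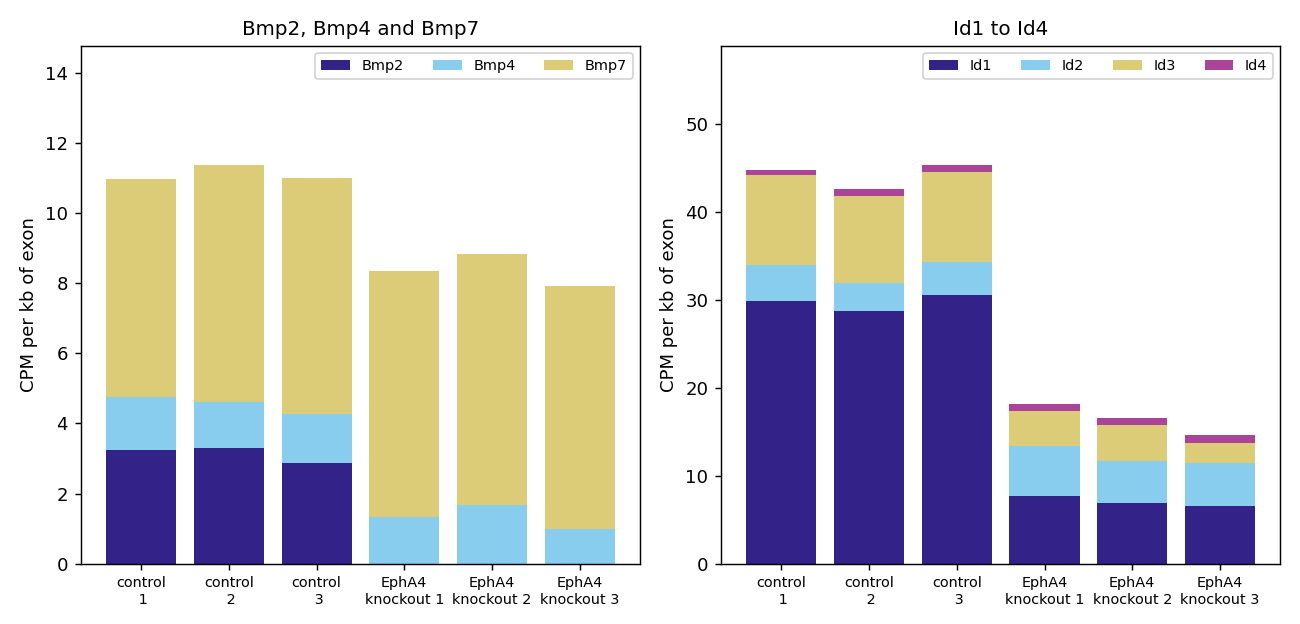
Stacked levels per library, in TMM-scaled CPM per kb of exon, for the 3 BMP ligand genes (left) and the 4 Id genes (right). Bmp2 is missing from the 3 labelled-knockout bars, and the Id sum drops from 44.2 to 16.4 CPM per kb on average, mostly through Id1.

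Neither receptor gene passed the test, in edgeR, limma-voom or DESeq2, and neither had an unadjusted p under 0.05 in edgeR. Bmpr1a, the type I receptor gene, had 1963, 2296 and 2736 counts in control, and 1982, 2234 and 1950 counts with the knockout label. Its fold of 0.921 had a 95% interval of 0.80 to 1.06 (adjusted p = 0.25 in edgeR). Bmpr2, the type II receptor gene, had 1448, 1600 and 1778 counts in control, and 1560, 1837 and 1576 counts with the knockout label. Its fold of 1.07 had a 95% interval of 0.948 to 1.21 (adjusted p = 0.27 in edgeR). The groups overlapped for both genes. Without EphA4 knockout replicate 3, Bmpr2 passed as higher, with a log2 fold change of 0.20 and an adjusted p of 0.027 in edgeR. Per kb of exon, Bmpr1a stood at 9.64 ± 1.13 and Bmpr2 at 2.35 ± 0.175 CPM per kb in control (SD, n = 3 each), with no overlap.

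Of the 9 genes that kept reads in every library, Smad6 fell furthest. It had 249, 287 and 321 counts in control, and 14, 16 and 14 counts with the knockout label. Its level was 7.52 ± 0.724 CPM in control and 0.402 ± 0.0278 CPM in the labelled-knockout libraries (SD, n = 3 each). This was 18.5-fold lower (log2 fold change -4.21, SE 0.23, adjusted p = 3.9e-07 in edgeR). The labelled-knockout libraries lay close together and far below every control library. Of all tested genes, 5.34% had a log2 fold change this low or lower. Next to it on chromosome 9, Smad3, a Smad of the TGF-beta branch, fell by 0.93 on the log2 scale. The nearest tested gene on the other side, Zwilch, fell by 0.23.

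The Id genes split. Id1 and Id3 fell, Id2 rose and Id4 did not pass. Id1, the Id gene most used as a readout of BMP activity, had 1282, 1177 and 1477 counts in control, and 319, 296 and 279 counts with the knockout label. Mean levels of 34.5 ± 1.06 and 8.18 ± 0.678 CPM (SD, n = 3 each) made this a 4.21-fold fall (log2 fold change -2.07, SE 0.08, adjusted p = 8.5e-08 in edgeR). Id3, its near relative in sequence and function, had 682, 628 and 765 counts in control, and 253, 265 and 156 counts with the knockout label. Mean levels of 18.2 ± 0.342 and 6.17 ± 1.67 CPM (SD, n = 3 each) made this a 2.95-fold fall (log2 fold change -1.56, SE 0.19, adjusted p = 8.1e-05 in edgeR). The lowest Id3 value was in EphA4 knockout replicate 3, and without that library the log2 fold change was -1.29 and still passed. For both genes the groups were far apart.

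Id2, a family member with many inputs besides BMP, had 373, 270 and 384 counts in control, and 499, 432 and 436 counts with the knockout label. It rose 1.39-fold (95% interval 1.11 to 1.74, adjusted p = 0.014 in edgeR). The 2 means were 8.97 ± 1.23 and 12.5 ± 1.25 CPM (SD, n = 3 each), and the groups did not overlap. Control replicate 2 had the lowest value, and without it the log2 fold change of 0.41 did not pass (adjusted p = 0.051). Id4, the most divergent of the 4, had 84, 115 and 111 counts in control, and 103, 126 and 113 counts with the knockout label. The groups overlapped, and its fold of 1.14 had a 95% interval of 0.784 to 1.67 (adjusted p = 0.48 in edgeR).

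Id transcripts as a whole shrank and changed in makeup. Per kb of exon, the 4 summed to 44.2 ± 1.40 CPM in control and 16.4 ± 1.77 CPM in the labelled-knockout libraries (SD, n = 3 each). In control the order was Id1 (29.7 ± 0.914), Id3 (10.2 ± 0.191), Id2 (3.68 ± 0.503) and Id4 (0.709 ± 0.130 CPM per kb), with no overlap between neighbours. In the labelled-knockout libraries Id1 (7.05 ± 0.585) still led, Id2 (5.13 ± 0.515) now stood above Id3 (3.44 ± 0.930), and Id4 (0.812 ± 0.0702 CPM per kb) was again last, also with no overlap between neighbours. Id1 went from 66.5% to 67.5% of the sum in control to 41.6% to 44.9%, and Id2 from 7.35% to 9.21% to 28.9% to 33.4%. The share of Id3 overlapped between the groups, at 22.6% to 23.3% and 16.3% to 24.1%.

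**Figure D3:**
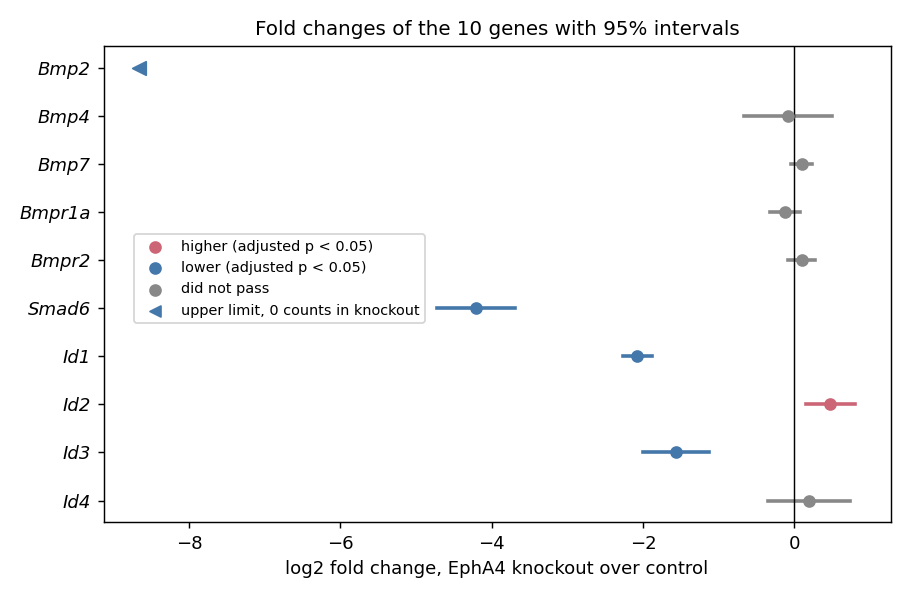
Log2 fold change of each gene in the labelled-knockout libraries over control, with 95% intervals from edgeR. The triangle for Bmp2 marks the upper limit set by 0 counts against a floor of 3. Smad6, Id1 and Id3 lie left of 0, Id2 lies right of it, and the intervals of Bmp4, Bmp7, Bmpr1a, Bmpr2 and Id4 cross it.

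The start regions of Smad6 and Id3, which fell, and of Id2, which rose, are shown because these genes are textbook BMP targets that moved in opposite directions. RefSeq promoter sequences of build GRCm38.p6, from 250 bases before to 50 bases after the start, were matched for 7 of the 10 genes, and not for Bmp2, Bmp7 and Id1. They were searched on both strands for 2 sequences known from Smad-bound enhancers, GGCGCC, which reads the same on both strands, and CAGAC with its reverse complement GTCTG. The 2 do not overlap in these windows. Matches are in capitals. The windows are chr9:64022010-64022309 on the minus strand for Smad6, chr4:136143572-136143871 on the plus strand for Id3 and chr12:25096043-25096342 on the minus strand for Id2.
Smad6: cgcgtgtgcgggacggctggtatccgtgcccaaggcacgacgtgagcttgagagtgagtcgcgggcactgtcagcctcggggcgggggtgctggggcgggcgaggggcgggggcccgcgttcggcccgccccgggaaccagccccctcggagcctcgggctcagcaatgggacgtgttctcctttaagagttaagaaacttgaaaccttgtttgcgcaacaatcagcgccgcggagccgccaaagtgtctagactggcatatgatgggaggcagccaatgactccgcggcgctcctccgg
Id3: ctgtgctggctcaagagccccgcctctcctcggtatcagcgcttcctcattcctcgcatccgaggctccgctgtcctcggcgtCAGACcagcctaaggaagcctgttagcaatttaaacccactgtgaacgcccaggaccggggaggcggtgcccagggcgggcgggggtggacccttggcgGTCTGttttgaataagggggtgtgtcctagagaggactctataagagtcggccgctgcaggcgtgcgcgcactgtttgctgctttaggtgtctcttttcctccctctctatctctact
Id2: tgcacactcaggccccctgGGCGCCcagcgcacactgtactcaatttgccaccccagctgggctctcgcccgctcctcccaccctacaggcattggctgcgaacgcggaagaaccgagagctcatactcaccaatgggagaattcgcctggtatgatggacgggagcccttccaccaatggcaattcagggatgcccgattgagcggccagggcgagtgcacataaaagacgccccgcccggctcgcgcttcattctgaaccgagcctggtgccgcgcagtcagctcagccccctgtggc
The Smad6 window held 0 matches to either sequence, the Id3 window 2 to CAGAC or its complement, and the Id2 window 1 to GGCGCC. Of the windows not shown, those of Bmpr1a, Bmpr2 and Id4, which did not pass, also held 1 match each to GGCGCC. The Bmp4 window held 0 matches to either sequence. Of all 32851 promoter windows of this length, 11.9% held GGCGCC and 49.6% held CAGAC on either strand. A match is a description of the letters and not a bound site.

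The wider pathway was read through 70 other listed genes, of which 69 symbols were in the table and 44 were tested. Of these 44, 8 rose, 25 fell and 11 did not pass, with a median log2 fold change of -0.58 beside -0.04 over all tested genes. The background was 32.7% of all tested genes higher and 38.8% lower, and it also stands beside the counts of each list below. Of the 44, 9 passed the filter on low counts only through the control libraries (Rgma, Chrd, Grem1, Fstl3, Bmper, Bambi, Msx1, Atoh8 and Tbx3) and 0 only through the other group. Such genes could be tested only because they were higher in control, as was Bmp2 among the 10 genes, so these counts and medians are descriptions. Reads of Bmp4, Bmpr1a and Id4 among the 10 genes, and of Bmp6, Rgma, Acvr2a, Smad5, Chrd, Fst, Fstl3, Tbx3 and Cdkn1a among the others named, can fall in exons of an overlapping gene, so without a stated strand setting their values are less certain. The tested fibroblast and pericyte markers given above, all but Pdgfra tested only through the control libraries, fell in the same libraries as these pathway genes. Their part in these results was not tested.

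Of the other ligand genes 2 of 11 were tested. Bmp6 fell 12.6-fold, with 11.8 ± 2.22 CPM in control and 0.932 ± 0.109 CPM in the labelled-knockout libraries (SD, n = 3 each). Bmp3 did not pass (log2 fold change -0.20). Of 6 tested receptors and co-receptors 1 rose and 3 fell. Rgma, a membrane-anchored BMP co-receptor gene, had 13.2 ± 1.01 CPM in control and fell to 0.138 ± 0.0959 CPM (SD, n = 3 each). Its relative Rgmb fell by 0.73 on the log2 scale. The type II receptor genes Acvr2b and Acvr2a moved in opposite directions, with log2 fold changes of -0.65 and 0.61. The type I receptor gene Acvr1 had a log2 fold change of 0.15 and did not pass (adjusted p = 0.063 in edgeR).

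Among the other Smads 1 of 4 tested rose and 2 fell, all by small amounts. Smad1 fell by 0.50 and the shared partner Smad4 by 0.25 on the log2 scale, while Smad5 rose by a log2 fold change of 0.47. Smad7, the other inhibitory Smad, stood at 51.1 ± 0.279 and 51.8 ± 2.13 CPM (SD, n = 3 each), a fold of 1.01 with a 95% interval of 0.939 to 1.10. Smad9 was not tested, with 28 counts over the control and 15 over the labelled-knockout libraries. The difference between Smad6 and Smad7 was not tested.

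Extracellular antagonists and modulators changed in both directions, 3 rising and 6 falling of 11 tested. The antagonist gene Grem1 had 290, 254 and 406 counts in control and 0 in each labelled-knockout library. Against the floor of 3 counts over the group it was lower by at least 304-fold. Bmper, whose product binds BMPs outside the cell, had 546 counts summed over control and 4 summed over the labelled-knockout group. Chrd, which encodes the antagonist chordin, fell 23.2-fold. Nog, which encodes the antagonist noggin, had 314, 224 and 257 counts in control, and 650, 673 and 686 counts with the knockout label. It rose 2.63-fold (95% interval 2.11 to 3.27, adjusted p = 2e-05 in edgeR), and Fst, which encodes follistatin, rose 2.22-fold. The third that rose was Twsg1, a BMP-binding modulator gene, with a log2 fold change of 0.61.

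Of 8 tested membrane, cytoplasmic and nuclear regulators 3 rose and 2 fell. Bambi, a pseudoreceptor gene that is itself a BMP target, had 105 counts summed over control and 3 summed over the labelled-knockout group, a ratio of 33.6 with a 95% counting interval of 11.2 to 165. Tob1, which encodes a Smad-binding repressor, fell 2.03-fold. Lemd3, which encodes an inner nuclear membrane protein that binds Smads, rose 1.97-fold.

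Of 10 other transcripts known to respond to BMP, 7 were tested and all 7 fell (median log2 fold change -4.28), beside 38.8% of all tested genes called lower. Of the 7, Msx1, Tbx3 and Atoh8 could be tested only because they were higher in control, so this count and median are descriptions. The log2 fold changes of the rest ran from -4.28 (Dlx3) to -0.72 (Msx2). Of the list, 7 were called lower and 0 higher in limma-voom and in DESeq2 too, which use the same counts and are not separate support. Msx1, a homeobox gene, had 601 counts summed over control and 1 summed over the labelled-knockout group, a ratio of 576 with a 95% counting interval of 103 to 22805. Tbx3, a T-box gene, had 496 and 3 counts, a ratio of 159 (95% counting interval 53.9 to 772). Atoh8, a basic helix-loop-helix gene, had 136 and 1 counts, a ratio of 130 (95% counting interval 23.0 to 5189). The homeobox gene Dlx3 fell 19.4-fold to 0.574 ± 0.190 CPM (SD, n = 3), and Msx2 fell by 0.72 on the log2 scale. The other 3 listed, Dlx5, Hey1 and Hamp, were too low to test. Hey1 leaned the other way, with 1, 5 and 5 counts in control, and 5, 16 and 8 counts with the knockout label, the groups overlapping in CPM. Dlx5 had 13 counts summed over control and 6 over the labelled-knockout group, and Hamp had 0 in every library.

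Genes on the other side of Id action were read from 6 tested genes, 3 of E proteins that Id proteins bind and 3 of cell cycle inhibitors that E proteins can activate. Of these 4 fell and 0 rose in edgeR, with 1 rising at an unadjusted p under 0.05, 1 in DESeq2 and 0 in limma-voom. The share of all tested genes that passed was 71.5%, so 4 of 6 passing was no more than the background. The share called lower was 38.8%. Cdkn1a fell 4.35-fold, Cdkn2a 2.55-fold and Cdkn2b 2.45-fold. Of the E protein genes Tcf4 fell by 1.19 on the log2 scale, and Tcf3 and Tcf12 did not pass (log2 fold changes -0.08 and 0.19).

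**Figure D4:**
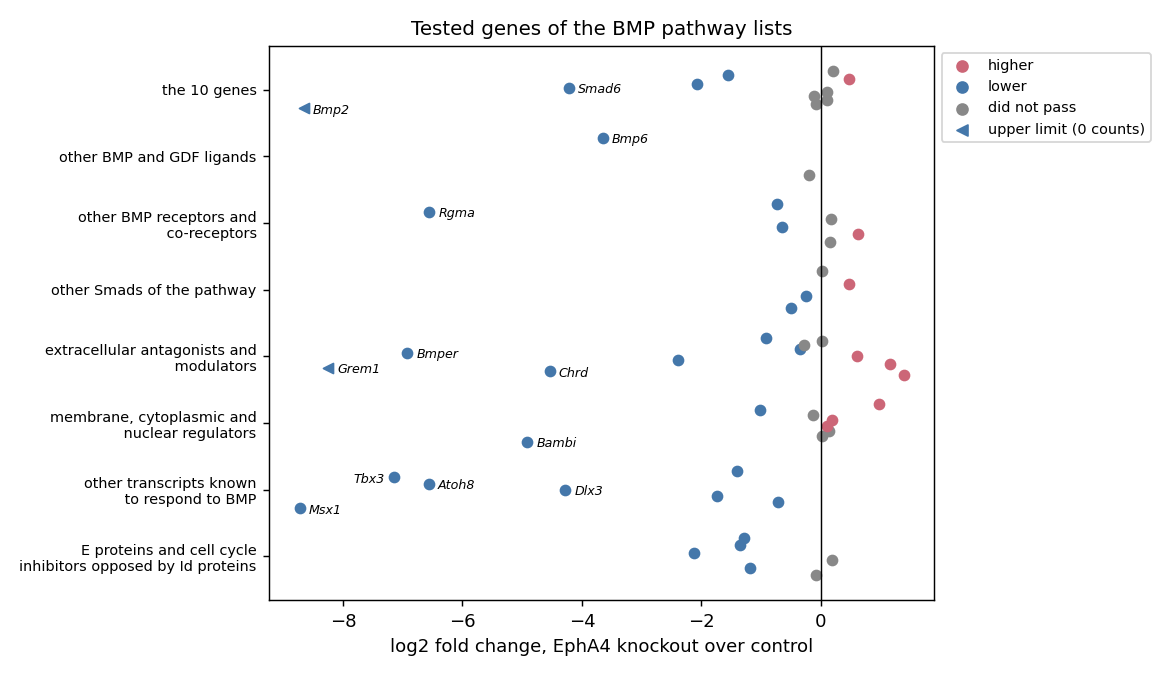
Log2 fold change of each tested gene, by list, in the labelled-knockout libraries over control. Points are genes, colours show whether the gene passed an adjusted p of 0.05 in edgeR, and triangles mark genes with 0 counts in the labelled-knockout libraries at their upper limit. The 7 other BMP-responsive transcripts all lie left of 0, and 3 of them could be tested only because they were higher in control.

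Over the 6 libraries, the genes whose mean-centred log2 CPM lay nearest to that of Id1, among 9325 genes of at least moderate level, were Tspo, Ccng2 and Parp9, at Euclidean distances of 0.129, 0.140 and 0.141. Their log2 fold changes were -2.16, -2.17 and -2.08. Those nearest to Bmp4 were Mblac2, Psmg4 and Klhl25, at distances of 0.146, 0.231 and 0.244. These libraries fall into 2 groups, so likeness mainly reflects a similar difference between the groups.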

How the data were processed

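The authors deposited 1 table of raw read counts per gene symbol, with no normalization. The submitters' processing notes name STAR, with no version, and GRCm39. Not given in the sources used here are the counting tool, annotation and strand setting. The table's symbols equal those of GENCODE M21 (GRCm38), which gave chromosomes, gene order, exon overlaps and summed exon lengths.

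After filterByExpr, 15199 of 28042 genes with any count remained. They were scaled by TMM and tested with edgeR 4.0.16 (glmQLFit, glmQLFTest, two-sided, group as the only term) in R 4.3.3, with Benjamini-Hochberg adjustment over all tested genes and a threshold of 0.05. Standard errors were taken as the size of the log2 fold change over the square root of F. Where a group had 0 counts, the fold is a bound against 3 counts per group. Ratios with 1 to 3 counts carry exact 95% binomial limits. Bounds and limits reflect counting error alone. Every pair of libraries differed beyond sampling noise, with a chi-square per degree of freedom of 4.41 or more. The script was checked on simulated counts.

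Members and gene lists were chosen with earlier results of these data known. Named were all members, up to 3 called genes per list by size of change, Smad1, Smad4, Smad5, Smad9, Acvr1, Bambi and Nog, and the 3 genes nearest to Id1 and to Bmp4 (average log2 CPM of at least 3, prior count 2). Bmp3, Acvr2a, Smad7, Fst, Twsg1, Dlx3, Msx2, Tcf3, Tcf4, Tcf12, Fstl3, Dlx5, Hey1 and Hamp were named after their values were seen, and chromosomal neighbours by position. Alternatives were other scaling factors (relative log expression, upper quartile, library totals), no filter, 5 CPM in 3 libraries, limma-voom (limma 3.58.1), DESeq2 1.42.0, a replicate block, each replicate left out, a threshold of 0.01 and glmTreat against a fold of 1.5. Figures were drawn with matplotlib 3.10.9.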

Additional observations from a re-analysis of the deposited data

How the results depend on the processing

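Bmp2, Smad6, Id1 and Id3 were called lower under every alternative run, so the number of the 10 genes called lower was 4 throughout. Id2 kept its direction but did not pass at a threshold of 0.01 (log2 fold change 0.48, adjusted p = 0.014) or with glmTreat against a fold of 1.5 (0.48, adjusted p = 0.85), so that 0 of the 10 were then called higher. With each replicate left out, the log2 fold change of Id2 ran from 0.41 to 0.62, that of Bmpr2 from 0.063 to 0.20 and that of Bmp4 from -0.24 to 0.15, and 0 to 2 of the 10 were called higher. Bmp4 was 0.01 without control replicate 1 and 0.15 without EphA4 knockout replicate 3, and never passed. The cause was not tested.

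Over all genes, glmTreat called 2006 higher and 3467 lower, against 4963 and 5904, as its construction asks for a larger change. Over the other pathway genes it called 3 higher. Of the receptors and co-receptors it called 0 higher and 1 lower, of the Smads 0 and 0, and of the regulators 1 higher. The filter of 5 CPM, which tests fewer genes, left 16 of the other pathway genes lower, with 3 antagonists, 1 regulator and 2 BMP-responsive transcripts among them, and called 2 receptors and 1 E protein gene higher. Relative log expression factors also called 2 receptors and 1 E protein gene higher, DESeq2 1 E protein gene, and no filter 1 regulator. With each replicate left out, the receptors called higher ran from 1 to 2 and the E protein genes from 0 to 1.

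Whether the replicate numbers pair the samples could not be settled from correlations this small. Deviations of same-numbered libraries from their group means had correlations of -0.0029, 0.029 and 0.0083. Control replicate 1 correlated best with EphA4 knockout replicate 3, while control replicates 2 and 3 correlated best with their own numbers. No correlation passed 0.1. With the replicate block 4624 genes were called higher and 5715 lower, Id2 had a log2 fold change of 0.48 (adjusted p = 0.012), and 1 E protein gene was called higher. Counts per library were 82 to 140 for Bmp4, 84 to 126 for Id4 and 14 to 16 for Smad6 in the labelled-knockout libraries. These low counts, together with the scatter among libraries, limit the precision of their folds.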
